A study of Mus musculus with 35 samples.

Results

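Esrrb, Tfcp2l1 and Nr5a2 are 3 mouse genes for transcription factors of the naive pluripotent state, and their chromatin was followed from fibroblasts to embryonic stem cells. The members were chosen by gene name, with earlier results of these data known. For each gene, all peaks over the gene or within 50 kb of it were taken, on the GRCm38 (mm10) coordinates of the RefSeq gene table. The windows held 397 of the 902871 peaks on chromosomes 1 to 19 and X. Merged over libraries, these peaks formed 42 of 85740 KLF4 regions and 103 of 179334 H3K27ac regions. Esrrb had 17 KLF4 and 38 H3K27ac regions, Tfcp2l1 had 12 and 51, and Nr5a2 had 13 and 14. Regions are numbered along the chromosome below, with K for KLF4 and H for H3K27ac.

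The study mapped KLF4 binding and acetylation of histone H3 at lysine 27 (H3K27ac) by ChIP-seq while fibroblasts were reprogrammed, and asked how KLF4 relates to enhancers. Mouse embryonic fibroblasts (MEF, C57BL/6 x 129) carried OKSM, a cassette for Pou5f1, Klf4, Sox2 and Myc, in Col1a1 and the doxycycline-dependent activator M2rtTA in ROSA26. They were grown in MEF medium without doxycycline, or for 3, 6 or 9 days in ESC medium to which doxycycline (1 µg/ml) and ascorbic acid (50 µg/ml) were added. Day 3 cells were unsorted, while day 6 and day 9 cells were sorted for the surface marker SSEA1, so the sort and the day cannot be told apart between day 3 and day 6. The embryonic stem cells (ESC) were the line V6.5, of the same strain mix and without the cassette, grown on irradiated feeder fibroblasts in serum and LIF. Some of its KLF4 libraries came from cells with 1 µM MEK inhibitor and 3 µM GSK3 inhibitor added (2i). H3K27ac had 2 libraries of MEF, 3 of day 3, 3 of day 6, 2 of day 9 and 2 of serum ESC. KLF4 had 2 libraries for each of day 3, day 6, day 9, serum ESC and 2i ESC. No KLF4 library of MEF was analysed here, so the order of the marks can be read only from day 3 on. KLF4 from day 3 to day 9 includes the product of the induced cassette. The design text calls the replicates biological, but p-values below still rest on 2 or 3 libraries a stage.

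Esrrb is an orphan nuclear receptor that binds estrogen-related response elements and, downstream of GSK3 inhibition, sustains self-renewal of ESC. Tfcp2l1 is a factor of the CP2 and grainyhead family that acts downstream of LIF and STAT3. Nr5a2 is an orphan nuclear receptor that can stand in for Pou5f1 among the reprogramming factors. KLF4 is a zinc finger factor that binds GC-rich and CACCC-type sites, and H3K27ac marks active promoters and enhancers. All 3 genes are known as active in ESC and silent in fibroblasts, and their expression was not analysed here.

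The lists were of unequal length. H3K27ac lists held 17493 to 88347 peaks, with the fewest at day 6, where they covered 9.21 to 19.9 Mb, against 48.9 to 49.5 Mb at day 9 and 62.3 to 66.3 Mb in ESC. KLF4 lists held 21129 to 34640 peaks. A missing peak is therefore weak evidence of missing signal, above all for H3K27ac at day 6. Of 8 fibroblast genes, 8 carried an H3K27ac peak in both MEF libraries. This was 6 to 8 for day 3, 4 for day 6 and day 9, and 4 to 5 for ESC. Of 8 genes of pluripotent cells, 1 carried a peak in each MEF, day 3 and day 6 library, 7 at day 9 and 8 in ESC. These markers went with the stage labels, and the acetylated genes of pluripotent cells first appeared in number at day 9. For H3K27ac, batch moved with stage: every MEF and ESC library belonged to batch DG-3458, and both day 9 libraries to EA-3702.

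The sequences just upstream of the annotated starts are shown because KLF4 occupied 2 of the 5 starts of these genes and left the others without a peak. They are RefSeq sequences (GRCm38.p6), 250 bases 5′ to 3′ in the direction of transcription. Capitals mark matches to 4 KLF-type forms, GGGCGTGG, GGGTGTGG, GGGCGGGG and GGGTGGGG, on either strand, and the forms were chosen after the sequences had been seen.
Tfcp2l1, chr1:118627695-118627944, plus strand: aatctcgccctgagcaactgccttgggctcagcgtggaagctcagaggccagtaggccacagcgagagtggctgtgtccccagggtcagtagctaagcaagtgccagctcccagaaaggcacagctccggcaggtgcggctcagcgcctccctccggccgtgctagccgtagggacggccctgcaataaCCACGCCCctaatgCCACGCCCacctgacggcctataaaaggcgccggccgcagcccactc
Nr5a2, second start, chr1:136953631-136953880, minus strand: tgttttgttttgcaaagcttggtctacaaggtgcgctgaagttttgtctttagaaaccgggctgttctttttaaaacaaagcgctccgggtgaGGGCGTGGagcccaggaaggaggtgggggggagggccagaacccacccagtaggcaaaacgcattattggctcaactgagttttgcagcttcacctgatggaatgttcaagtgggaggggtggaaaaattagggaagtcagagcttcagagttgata
Esrrb, second start, chr12:86421394-86421643, plus strand: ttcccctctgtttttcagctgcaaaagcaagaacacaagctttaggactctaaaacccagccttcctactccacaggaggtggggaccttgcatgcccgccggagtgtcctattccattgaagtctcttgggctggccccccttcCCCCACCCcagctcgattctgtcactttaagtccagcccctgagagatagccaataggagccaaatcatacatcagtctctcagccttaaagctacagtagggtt
The Tfcp2l1 sequence held 2 matches to GGGCGTGG as its reverse complement, 61 to 54 and 47 to 40 bases before the start. The sequence of the second Nr5a2 start held 1 match to GGGCGTGG, 157 to 150 bases before it. The sequence of the second Esrrb start held 1 match to GGGTGGGG as its reverse complement, 105 to 98 bases before it. The first Esrrb start also had 1 match to GGGTGGGG, and the first Nr5a2 start had no match among these letters. Among 32619 RefSeq promoter windows of this length, 4.83% held GGGCGTGG, 3.21% GGGTGTGG, 16.2% GGGCGGGG and 9.11% GGGTGGGG, and 27.5% held any of the 4. A match is a description of the letters and not a binding site.

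KLF4 peaks overlapped the printed Tfcp2l1 sequence in 2 of 2 day 3 libraries, in 1 of 2 day 6 libraries, and in both libraries of each later stage. At the second Nr5a2 start they did so in neither day 3 library and in both libraries of each later stage. H3K27ac peaks overlapped both of these sequences in 2 of 2 day 9 and 2 of 2 ESC libraries and in no library before. Neither mark overlapped the sequences of the Esrrb starts or of the first Nr5a2 start in any of the 22 libraries. The KLF4 region nearest an Esrrb start, Esrrb K3, lay 14.3 kb from it and had a KLF4 peak in 1 of the 10 KLF4 libraries, of 2i ESC, and an H3K27ac peak in 1 ESC library.

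The length under H3K27ac peaks set the genes apart by stage. In the Esrrb window (chr12:86311117-86571628, 260512 bp) it was 0 bp in both MEF, all 3 day 3 and all 3 day 6 libraries. It was 1800 and 2289 bp in the day 9 libraries and 61210 and 59694 bp in ESC. At day 9, 68.0% of all windows had at least as much acetylated length, and nearly all acetylation of this one was seen in ESC only.

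In the Tfcp2l1 window (chr1:118577923-118735168, 157246 bp) MEF libraries already had 10064 and 9444 bp under H3K27ac peaks. Day 3 had 1719, 1251 and 1537 bp, day 6 had 427, 0 and 2071 bp, day 9 had 8295 and 7716 bp, and ESC had 35990 and 37380 bp. This was the only one of the 3 windows with a region called in MEF. It was lower in every day 3 and day 6 library and higher again at day 9 and in ESC. Windows of all genes had a median of 4.23% of the window covered in MEF, 1.63% at day 3, 0.836% at day 6 and 3.11% both at day 9 and in ESC. Their median was thus also lower at day 3 and day 6 and higher at day 9, but it did not go up from day 9 to ESC, where Tfcp2l1 went from 5.09% to 23.3%. The Tfcp2l1 window also takes in the end of Clasp1, a gene for a microtubule-binding protein, which was the only other protein-coding gene in the 3 windows.

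In the Nr5a2 window (chr1:136792562-137010448, 217887 bp) the length was 383 and 0 bp in MEF, 0 bp in all 3 day 3 libraries and 204, 0 and 0 bp at day 6. It was 6602 and 5645 bp at day 9 and 12673 and 11887 bp in ESC. All day 9 and ESC libraries lay above all earlier ones, and day 9 had reached a larger part of the ESC length at Nr5a2 than at the other genes, which was not tested.

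The stages differed for all 3 genes by an exact permutation test on the between-stage F, adjusted by Benjamini-Hochberg over 20145 gene windows. The unadjusted and adjusted p were 0.00202 and 0.00297 for Esrrb, 2.89e-05 and 0.000284 for Tfcp2l1, and 0.000938 and 0.00169 for Nr5a2. The smallest p that this design allows is 7.22e-06. For Esrrb, whose MEF, day 3 and day 6 libraries all tie without a peak, this permutation test allows none below 0.00202. Of all windows 95.8% passed, so passing does not set these genes apart. Their median F was 868, against 370 for 12 other genes of the naive network and 44.4 over all windows. F is raised where libraries of a stage do not vary, as at Esrrb before day 9, where none had a peak. In ESC, 21 of 21631 windows (0.0971%) had at least the acetylated length of the Esrrb window, which is a long one. For Tfcp2l1 this share was 1.24% and for Nr5a2 20.0%. As a share of the window, ESC acetylation covered 23.2% for Esrrb, 23.3% for Tfcp2l1 and 5.64% for Nr5a2, against a median of 3.11% over all windows. By that measure 2.67% of windows were at or above Esrrb, 2.64% at or above Tfcp2l1 and 34.3% at or above Nr5a2.

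KLF4 lengths are given next, gene by gene. The Esrrb window had 412 and 153 bp under KLF4 peaks at day 3, 201 and 575 bp at day 6 and 784 and 495 bp at day 9. Serum ESC had 2819 and 4360 bp and 2i ESC 3302 and 3917 bp. The 4 ESC libraries, in either medium, all lay above the 6 libraries of the time course.

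Tfcp2l1 had 1623 and 957 bp at day 3, 1184 and 1671 bp at day 6 and 1953 and 2274 bp at day 9. Serum ESC had 2255 and 3187 bp and 2i ESC 1904 and 2801 bp. Day 3 and day 6 overlapped, day 9 lay above both, and day 9, serum ESC and 2i ESC overlapped one another, with binding present from the first time point.

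Nr5a2 had 0 bp in both day 3 libraries, 517 and 1040 bp at day 6 and 1253 and 1300 bp at day 9. Serum ESC had 1468 and 2332 bp and 2i ESC 1442 and 1273 bp. Here day 3, day 6 and day 9 did not overlap.

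By the same test none of the 3 genes passed for KLF4. Unadjusted and adjusted p were 0.0381 and 0.369 for Esrrb, 0.147 and 0.506 for Tfcp2l1, and 0.00212 and 0.289 for Nr5a2, with 0.00106 the smallest p that 2 libraries a stage allow. Of 19866 windows tested 0% passed after adjustment and 12.5% had an unadjusted p under 0.05, which 2 of the 3 genes, Esrrb and Nr5a2, also had. No window of any gene passed, so the KLF4 lengths are given as values only.

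**Figure D1:**
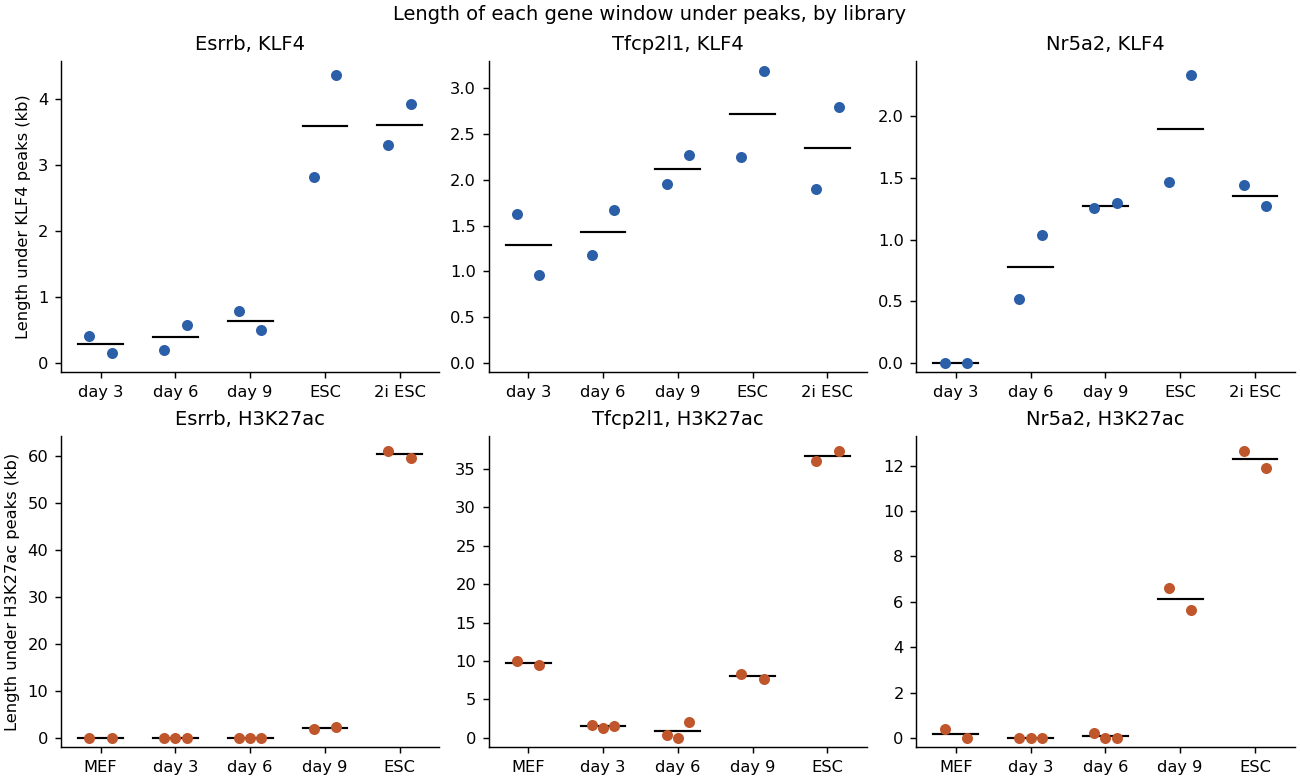
Length of each gene window under KLF4 peaks (top row, blue) and H3K27ac peaks (bottom row, orange), in kb, against stage. Each point is a library and each bar the mean of its stage; the vertical scales differ. Esrrb is near 0 for H3K27ac until ESC, Tfcp2l1 is already covered in MEF, and Nr5a2 is at or near 0 until day 9.

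At Esrrb the called KLF4 sites lay in the gene body, 41.6 to 83.0 kb past the second start, apart from 1 site upstream. RefSeq gives gene ends and starts here but no exons, so exon and intron are not told apart. A region is said to be called at a stage when at least 2 of its libraries had a peak over it. KLF4 was called at 1 of the 17 regions on day 3, at 1 on day 6, at 2 on day 9, and then at 8 in ESC and 9 in 2i ESC. H3K27ac was called at none of the 38 regions before day 9, at 1 on day 9 and at 21 in ESC. The ESC count was 37 without the first ESC library and 36 without the second, and 7 with lists cut to equal length.

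The day 3 site, Esrrb K1 (chr12:86329359-86329770), lay 31.6 kb upstream of the first start. The authors' score there, 10 times −log10 of the peak's p-value, was 81 and 38 at day 3. No later KLF4 library and no H3K27ac library had a peak over it.

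The earliest site that ESC kept was Esrrb K5 (chr12:86462994-86463407), 41.6 kb past the second start. Its KLF4 scores were 38 and 41 at day 6, 61 and 168 at day 9, 44 and 87 in ESC and 152 and 74 in 2i ESC. No H3K27ac library had a peak over it before ESC, where the scores were 553 and 527. In 1 of 2 day 9 libraries an H3K27ac peak with a score of 36 lay within 1 kb of K5 without touching it. KLF4 was thus seen at K5 at day 6 and at day 9, in all 4 libraries, and an H3K27ac peak overlapping it only in ESC.

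Esrrb K11 (chr12:86478886-86479285) had the best mean KLF4 rank of the gene over the 2 ESC libraries, although K15 ranked higher in 1 of them. Its KLF4 scores were 49 and 38 at day 9, 174 and 239 in ESC and 35 and 147 in 2i ESC. It had no H3K27ac peak at day 9 and scores of 1020 and 968 in ESC, so it too was bound at an earlier stage than it was acetylated.

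Between them, Esrrb K6 (chr12:86464476-86464792) gave no order. It had KLF4 scores of 95 and 143 in ESC and 46 and 44 in 2i ESC, H3K27ac scores of 553 and 527 in ESC, and neither mark before.

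The reverse order held nearby. Esrrb K8 and K9 (chr12:86469955-86470389 and chr12:86470910-86471609) were touched by an H3K27ac peak in both day 9 libraries, with scores of 166 and 281. These peaks covered all of K9 but 194 and 286 of the 435 bp of K8. KLF4 was called at both only in ESC, with scores of 49 and 118 at K8 and 98 and 120 at K9. K9 also had a KLF4 peak with a score of 41 in 1 of 2 day 9 libraries. One stretch of the Esrrb body thus held sites with KLF4 called first and sites with acetylation called first.

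The strongest acetylation came with the 2 called sites furthest into the gene. Esrrb K15 (chr12:86501408-86502123) had KLF4 scores of 81 and 432 in ESC and 203 and 125 in 2i ESC, and none at day 3, day 6 or day 9. It touched both Esrrb H26 (chr12:86500127-86501609) and Esrrb H27 (chr12:86501901-86512456). H26 had H3K27ac scores of 1192 and 938 in ESC and no peak before. Esrrb K16 (chr12:86504282-86505021) lay inside H27 and had KLF4 scores of 116 and 140 in ESC and 53 and 121 in 2i ESC. H27, 10556 bp long, had H3K27ac scores of 1498 and 1254 in ESC, among the top 0.433% and 0.522% of those lists. Its only earlier peak, with a score of 30, was in 1 of 2 day 9 libraries. Beginning 54 bp past the second start, Esrrb H9 (chr12:86421698-86422930) had scores of 58 and 61 in ESC alone, far below those of H27 within the same lists.

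At Tfcp2l1, KLF4 was at several sites from day 3 on. KLF4 was called at 3 of its 12 regions on day 3, at 3 on day 6 and at 4 on day 9, and then at 8 in ESC and 6 in 2i ESC. H3K27ac was called at 11 of its 51 regions in MEF. The later stages called 2 (day 3), 1 (day 6), 3 (day 9) and 19 (ESC). The ESC count was 31 without the first ESC library and 35 without the second, and 4 with lists cut to equal length. No KLF4 region of the window that was called at a stage was acetylated in 2 MEF libraries, so the regions called in MEF lay elsewhere. Examples, chosen after their values had been seen, are Tfcp2l1 H4 (chr1:118589707-118590605), inside Clasp1, with MEF scores of 196 and 112, and Tfcp2l1 H28 (chr1:118660590-118661977), in the body of Tfcp2l1, with 200 and 164.

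The central site was Tfcp2l1 K8 (chr1:118647892-118648602), 20.3 kb past the start, with a KLF4 peak in all 10 libraries. Its scores were 102 and 66 at day 3, 239 and 343 at day 6, 206 and 255 at day 9, 488 and 459 in ESC and 78 and 151 in 2i ESC. H3K27ac overlapped it in no MEF library, with scores of 36 and 67 in 2 of 3 day 3 libraries and of 33 and 119 in 2 of 3 at day 6. The scores were 507 and 425 at day 9 and 1058 and 708 in ESC. Both marks were first called at day 3, so K8 gives no order. The peak belongs to Tfcp2l1 H22 (chr1:118639274-118653169), where ESC libraries had 13225 and 13828 bp under peaks and day 9 libraries 5670 and 5362 bp. Tfcp2l1 K7 (chr1:118645722-118646040), also inside H22, was called for both marks in ESC and had neither before. Its KLF4 scores were 84 and 112 in ESC and 50 and 33 in 2i ESC.

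The promoter site Tfcp2l1 K4 (chr1:118627708-118628150) carries the printed sequence with 2 motif matches. Its KLF4 scores were 41 and 38 at day 3, 92 in 1 of 2 day 6 libraries, 41 and 61 at day 9, 65 and 138 in ESC and 222 and 51 in 2i ESC. H3K27ac was called there at day 9, with scores of 60 and 128, and in ESC, with 791 and 746. The acetylated block around it, Tfcp2l1 H14 (chr1:118625678-118631347), had 934 and 912 bp under peaks at day 9 and 5470 and 5657 bp in ESC. A single MEF library, with a score of 45, and a single day 3 library, with a score of 20, also had an H3K27ac peak over part of K4. The order KLF4 before H3K27ac at the promoter thus rests on asking for 2 libraries. It also rests on day 3 KLF4 peaks whose q-values were both above 0.01.

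Tfcp2l1 K6 (chr1:118642549-118643090) and K9 (chr1:118650039-118650566) had no H3K27ac peak in any MEF, day 3 or day 6 library. KLF4 scores at K6 were 144 and 38 at day 3, 160 in 1 of 2 day 6 libraries, none at day 9 and 75 and 131 in ESC. At K9 they were 44 in 1 of 2 day 3 libraries, 55 and 104 at day 6, 51 and 59 at day 9 and 29 and 168 in ESC. H3K27ac scores at day 9 were 249 and 187 at K6 and 507 and 105 at K9. In 2 of 3 day 6 libraries an H3K27ac peak, with scores of 53 and 32, lay within 1 kb of K6 without touching it. With these counted, H3K27ac at K6 would be first called at day 6, still after KLF4 at day 3.

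Downstream of the gene, Tfcp2l1 K11 (chr1:118689766-118690523) went the other way. H3K27ac scores were 93 in 1 of 2 MEF libraries, 46, 36 and 58 at day 3, 61 in 1 of 3 day 6 libraries, 254 and 275 at day 9 and 420 and 266 in ESC. KLF4 had a score of 29 in 1 of 2 day 3 libraries and was called from day 6, with 38 and 67. Upstream, Tfcp2l1 K1 (chr1:118597491-118597877), inside Clasp1, had KLF4 scores of 74 in 1 of 2 day 3 libraries, 42 in 1 of 2 day 6 libraries, none at day 9, and then 52 and 198 in ESC and 203 and 170 in 2i ESC, and no H3K27ac peak in any library.

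At Nr5a2, no KLF4 or H3K27ac region was called at day 3. Of 13 KLF4 regions, day 6 called 1, day 9 called 2, serum ESC called 5 and 2i ESC called 2. A KLF4 peak in 1 library alone was seen at 2 further regions at day 6, 2 at day 9, 3 in serum ESC and 7 in 2i ESC. Of 14 H3K27ac regions, none was called up to day 6, 3 were called on day 9 and 6 in ESC. The ESC count was 12 without the second ESC library and 2 with lists cut to equal length. In 1 MEF and 1 day 6 library a single H3K27ac peak lay beyond the 3′ end of the gene.

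The first site was Nr5a2 K12 (chr1:136953489-136954306), over the second start and the printed sequence. No day 3 library had a KLF4 peak there. The scores were 209 and 616 at day 6, 632 and 798 at day 9, 253 and 233 in ESC and 174 and 162 in 2i ESC. Both day 9 peaks were among the top 0.542% and 0.288% of their lists, against 1.78% and 6.75% in ESC. H3K27ac was without a peak over K12 in all 8 MEF, day 3 and day 6 libraries, and had scores of 391 and 532 at day 9 and 841 and 559 in ESC. KLF4 was thus called at this start at day 6 and H3K27ac at day 9.

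The acetylated block around it, Nr5a2 H10 (chr1:136950597-136956376), had 3495 and 3119 bp under peaks at day 9 and 5086 and 4917 bp in ESC. In 1 of 2 day 9 libraries and in both ESC libraries, 2 H3K27ac peaks reached K12 from its sides, covering 520, 609 and 701 of its 818 bp. Nr5a2 K6 (chr1:136949406-136949734), 4.06 kb past the second start, was called for both marks at day 9, with KLF4 scores of 97 and 53 and H3K27ac scores of 78 and 120. Nr5a2 K11 (chr1:136952782-136953251) was acetylated in both day 9 libraries and had KLF4 scores of 43 and 31 in ESC only among the serum and time course libraries. Nr5a2 K9 (chr1:136951265-136951666) was called for both marks in ESC, with KLF4 scores of 75 and 133. Nr5a2 H11 (chr1:136956460-136959242), between the starts, had H3K27ac scores of 181 and 236 in ESC alone and no KLF4 peak in any library.

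**Figure D2:**
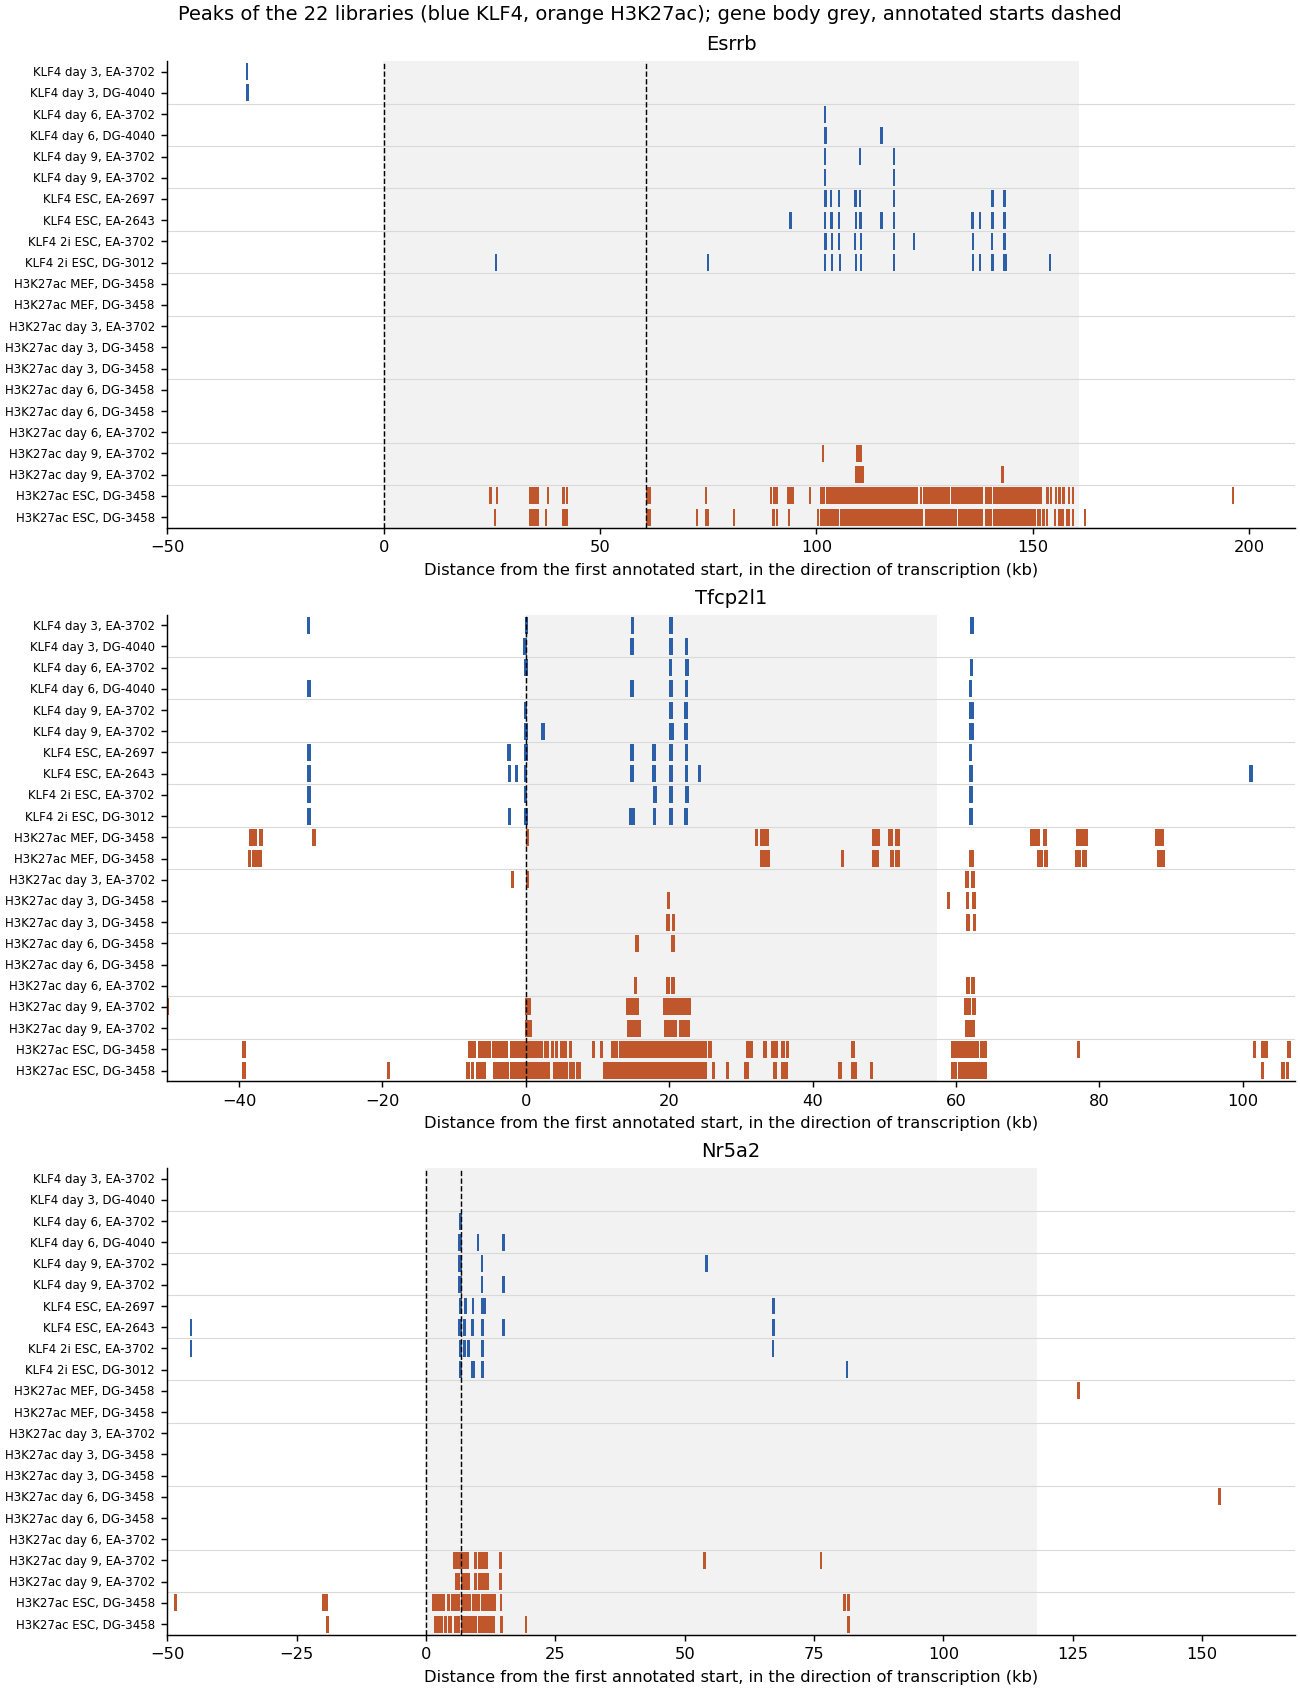
Peaks in the 3 gene windows, 1 row per library (blue KLF4, orange H3K27ac), against the distance in kb from the first annotated start in the direction of transcription. The grey band is the gene and dashed lines are annotated starts; peaks under 0.5 kb are drawn 0.5 kb wide. Most called KLF4 regions of Esrrb lie deep in the gene, with K1 upstream. Tfcp2l1 has called regions over the start and in the gene and 3 outside it (K1, K2 and K11), and Nr5a2 has 4 of its 5 close to the second start and K2 at 60.3 kb from it.

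Over the 3 genes, 22 KLF4 regions were called in at least 1 of day 3, day 6, day 9 and ESC, 9 at Esrrb, 8 at Tfcp2l1 and 5 at Nr5a2. KLF4 was called at an earlier stage than H3K27ac at 6 of them, 2 at Esrrb, 3 at Tfcp2l1 and 1 at Nr5a2. Where a single H3K27ac peak had to cover 50% of the shorter interval, the counts were 0, 4 and 0. Without the EA-3702 KLF4 library of day 6, Nr5a2 had 2. Both were first called at the same stage at 9 regions, H3K27ac came first at 4, and 3 were never acetylated. Of the 6, 2 went from KLF4 at day 3 to H3K27ac at day 9 and 2 from day 6 to day 9. A further 1 went from day 6 to ESC and 1 from day 9 to ESC. The 2 from day 3, Tfcp2l1 K4 and K6, each need a low-ranked KLF4 peak. At day 3 K4 ranked 73.4% (EA-3702) and 58.3% (DG-4040) down, and K6 18.5% and 58.3%. In these lists 70.6% and 44.3% of peaks had a q-value of at most 0.01. At that limit KLF4 would be called at both sites only in ESC, after H3K27ac at day 9. Esrrb K11 would have both marks first called in ESC, and Esrrb K5, Tfcp2l1 K9 and Nr5a2 K12 would keep KLF4 first. The order was not run with this limit.

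Over all 33320 called KLF4 regions, 14.7% had KLF4 at the earlier stage, against 6 of 22 here, and 37.3% were acetylated in MEF already, against 0 of 22. H3K27ac came first after MEF at 3.47%, against 4 of 22. Both marks were first called at the same stage at 21.8%, against 9 of 22, and 22.7% were never acetylated, against 3 of 22. With none acetylated in MEF, the share of the 3 genes lay above that of all regions in each class acetylated later, and not only where KLF4 came first. The regions of a gene share its locus and were not tested as replicates. Because H3K27ac lists were shortest at day 6, a site acetylated below the limit of the list at day 6 would be counted as KLF4 first, and the part of this in the counts was not tested.

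Few of the sites bound at day 6 were acetylated on that day. Of the 5 regions called for KLF4 at day 6, 1 was acetylated at day 6, against 45.2% of all such regions. At day 9 it was 6 of 8, against 76.6%. In ESC it was 19 of 21, against 72.6%. The exceptions at day 9 were both at Esrrb, K5 and K11, and those in ESC were Tfcp2l1 K1 and Nr5a2 K2 (chr1:136893195-136893515).

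**Figure D3:**
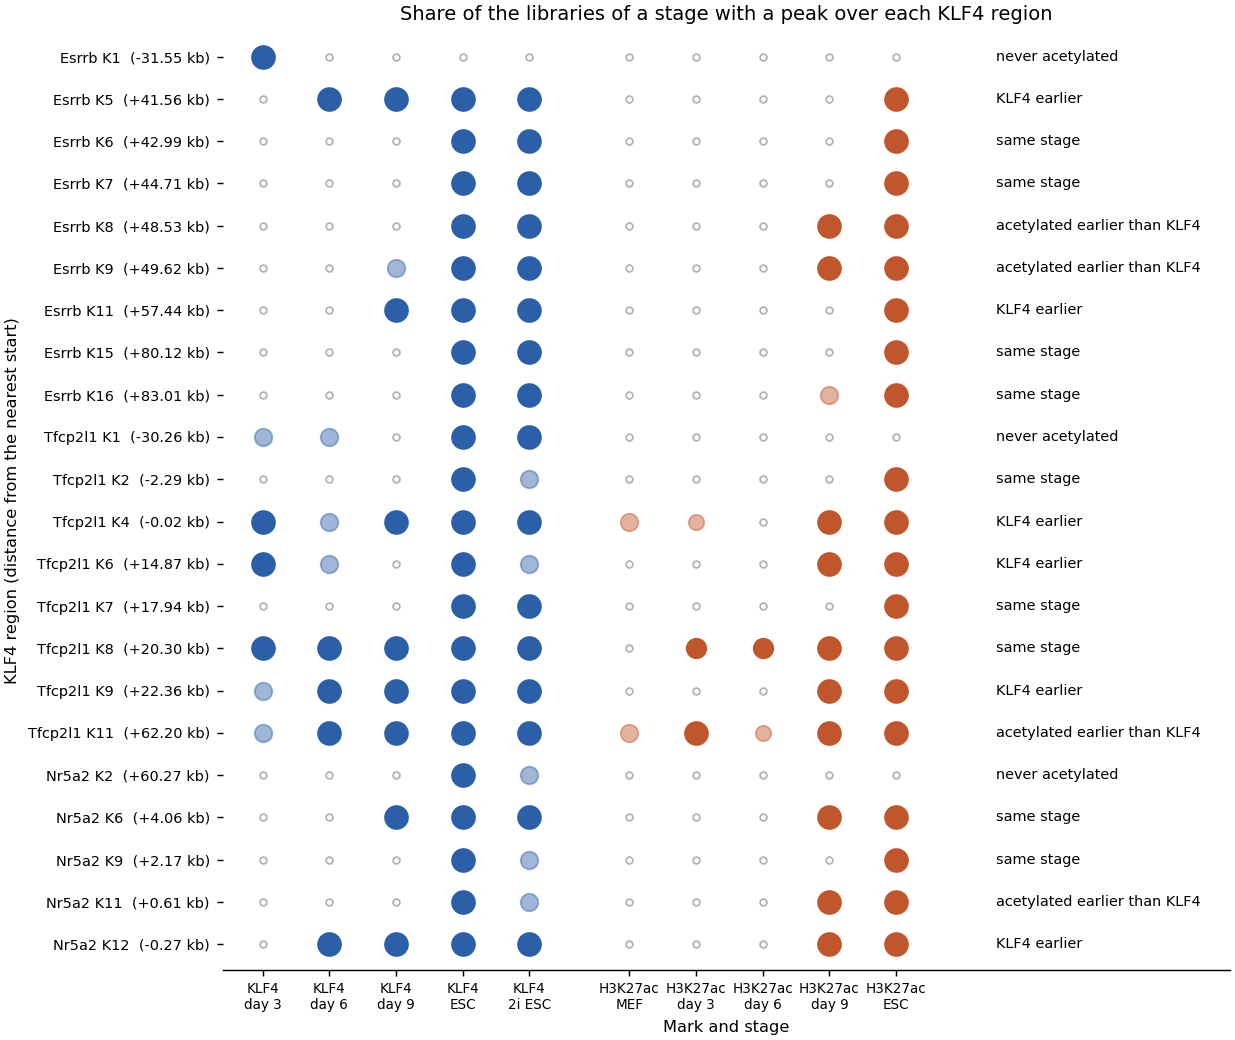
The 22 called KLF4 regions (rows, with the distance in kb of their middle from the nearest start) against mark and stage. Filled circles show a peak, large and dark for all libraries of a stage or 2 of 3 and pale for 1 library; small open circles show none. The order of the marks stands at the right, with KLF4 earlier at Esrrb K5 and K11, Tfcp2l1 K4, K6 and K9, and Nr5a2 K12.

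Taken over whole windows, KLF4 was first called at day 3 for Esrrb and Tfcp2l1 and at day 6 for Nr5a2. H3K27ac was first called at day 9 for Esrrb and Nr5a2 and in MEF for Tfcp2l1. KLF4 was thus first for Esrrb and Nr5a2. For Esrrb the upstream site K1 set the day, and K5, called at day 6, also came before day 9. These Esrrb calls rest on low-ranked peaks. In the DG-4040 day 3 list K1 ranked 58.3% down, while 44.3% of its peaks had a q-value of at most 0.01. At day 6 the best Esrrb peaks ranked 79.5% and 77.3% down, while 70.0% and 69.8% of peaks met that limit. Neither call would stand at that limit, with which the order was not run. For Tfcp2l1 the order could not be read, since H3K27ac was called in MEF, for which no KLF4 library was analysed here. For Nr5a2 H3K27ac was called in MEF, and the order could not be read either, when a peak in any library made a call or when the second MEF library was left out. With lists cut to equal length H3K27ac at Tfcp2l1 was first called at day 6, after KLF4 at day 3. KLF4 called before any H3K27ac held for 2.32% of 21631 windows, with windows that had no H3K27ac call counted among them. By the same rule it held for 1.35% of the 3713 windows of 150 to 270 kb, which are of like length. H3K27ac first called at day 9 held for 3.15% of windows and KLF4 called at day 3 for 66.8%. The members had been chosen with earlier results of these data known, so these shares describe them and are no test.

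**Figure D4:**
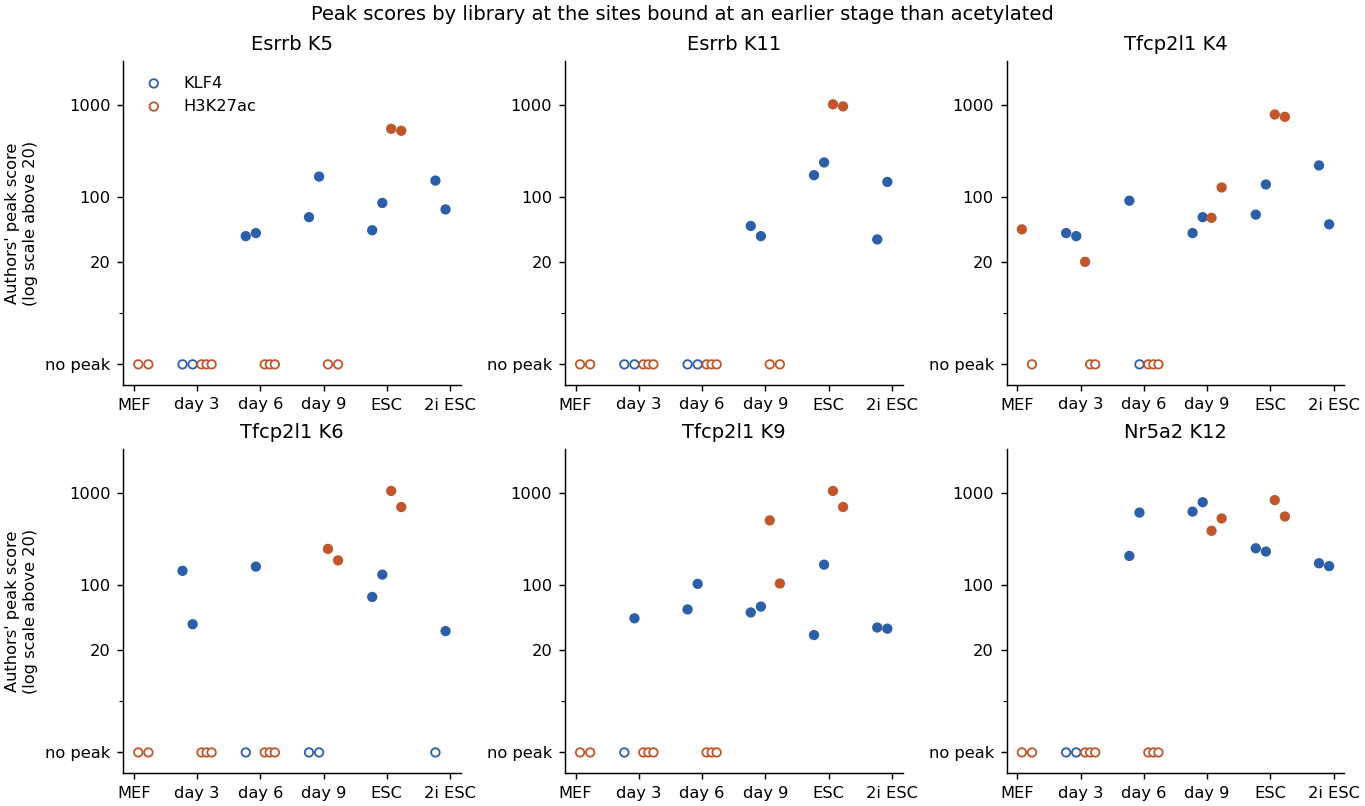
The authors' peak score, which is 10 times −log10 of the peak's p-value, at the 6 sites where KLF4 was called first, by stage (blue KLF4, orange H3K27ac; 1 point per library, log scale above 20). Open points mark libraries with no peak over the site; MEF has no KLF4 library and 2i ESC no H3K27ac library. KLF4 points precede filled orange points at each site except Tfcp2l1 K4, where 1 MEF and 1 day 3 library had an H3K27ac peak.

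Within batch EA-3702, which holds both marks at day 3, day 6 and day 9, Nr5a2 K12 had a KLF4 score of 209 in its day 6 library and H3K27ac only in its 2 day 9 libraries. In that batch a call at day 3 or day 6 rests on 1 library of each mark. KLF4 came first at 3 of 6 called regions of Tfcp2l1, 1 of 2 of Nr5a2 and 0 of 3 of Esrrb, against 12.7% of the 42664 regions called there. The Tfcp2l1 regions differed from those over all batches. K8 entered, with KLF4 at day 3 and H3K27ac in that batch first at day 6, with a score of 119. K4 dropped out, with both marks in that batch at day 3. None of the 3 Esrrb regions was acetylated by day 9, nor were 14272 of all regions there, which leaves their order to ESC, a stage of another batch for H3K27ac. Scores of different lists depend on depth, so none of these differences in score was tested between libraries.

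Of the KLF4 regions called in serum ESC, 2i ESC also called 8 of 8 at Esrrb, 6 of 8 at Tfcp2l1 and 2 of 5 at Nr5a2. Over all genes it called 9312 of 16127. Esrrb had 1 more region called in 2i, K13, which 1 serum library had as well, and Tfcp2l1 had 2 and Nr5a2 3 called in serum that were not called in 2i. Each of these, Tfcp2l1 K2 and K6 and Nr5a2 K2, K9 and K11, had a KLF4 peak in 1 of the libraries of 2i ESC. At the best site of Tfcp2l1, K8, the scores of 78 and 151 in 2i lay below the 488 and 459 in serum. At Esrrb K15 the scores of 203 and 125 in 2i lay between the 81 and 432 of serum. With 2 libraries in each medium, an exact test cannot go below 1 in 3, so the media were not tested.

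Of 12 other genes of the naive network, 12 passed the adjusted threshold of the exact permutation test for H3K27ac, as 95.8% of all windows did. For KLF4 0 of 12 passed and 2 had an unadjusted p under 0.05, against 12.5% of all windows. Their median F for H3K27ac was 370. Among them, Zfp42, a zinc finger gene of naive cells, had KLF4 called at an earlier stage than H3K27ac and H3K27ac first at day 9, as Esrrb and Nr5a2 had. H3K27ac was called in MEF in 10 of the 12 windows, against 82.1% of all windows. Of 8 relatives of the 3 genes (Esrra, Esrrg, Nr5a1, Tfcp2, Ubp1, Grhl1, Grhl2 and Grhl3), 8 passed for H3K27ac, with a median F of 35.9, and 0 for KLF4, adjusted or unadjusted. All 8 windows had H3K27ac called in MEF, for which no KLF4 library was analysed here, so the order cannot be read in them.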

How the data were processed

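ChIP-seq peak lists of 22 libraries were used, 12 for H3K27ac and 10 for KLF4. The 13 input libraries were not analysed here. Per the submitters' processing notes, the tools included cutadapt 1.8.1, Bowtie2 2.2.5, MACS2 2.1.1 and deepTools 2.3.6, with build mm10. Caller settings and controls are not given in the sources used here. The authors deposited 1 list per library with 10 columns. Its columns hold the authors' score, the deposited fold enrichment (a ratio), and −log10 p-values and −log10 q-values as the authors deposited them. Peaks had been called per sample. Depth is not given, so no interval from read counts could be made.

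Peaks on chromosomes 1 to 19 and X entered, and overlap meant at least 1 bp. KLF4 regions were merged peaks of the 10 KLF4 libraries and H3K27ac regions those of the 12 H3K27ac libraries. A region was called at a stage with a peak in at least 2 of its libraries. Covered length per gene window was compared over stages by an exact permutation test of F (upper tail), over 138600 labelings for H3K27ac and 945 for KLF4, with Benjamini-Hochberg adjustment over all protein-coding windows and a threshold of 0.05. Regions described one by one were the nearest to a start, the best 4 KLF4 and 2 H3K27ac regions by rank in ESC, and day 3 KLF4 regions lacking in ESC, together with the sites whose order the text gives. Members and lists were chosen with earlier results of these data known. Replicate lists shared at most 15 identical intervals. Python 3.11.15, NumPy 2.4.6, pandas 2.3.3 and Numba 0.67.0 were used, and the code was tested on simulated data. Alternatives were other peak limits, windows, overlaps and measures, batches, number blocks, and leaving out each library.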

Additional observations from a re-analysis of the deposited data

How the results depend on the processing

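The H3K27ac difference between stages stayed past the threshold for all 3 genes when any 1 library was left out, with adjusted p from 0.00234 to 0.00893 for Esrrb, 0.000657 to 0.00246 for Tfcp2l1 and 0.000948 to 0.0069 for Nr5a2, and under the other limits, windows and measures and with labels permuted within batches. It lost the threshold only with the replicate numbers of batch DG-3458 as a block, with 8 libraries and none of day 9. This permutation test allows no p below 0.0417 there. For Esrrb and Nr5a2, at or near 0 bp outside ESC in that batch, tied labelings allow no unadjusted p below 0.25. The adjusted p were 0.257 for Esrrb, 0.0715 for Tfcp2l1 and 0.257 for Nr5a2. With the day 6 numbers exchanged, as the peak names inside those lists have them (chosen after seeing the data, like the fits without MEF and on batch EA-3702), they were 0.258, 0.0737 and 0.258. Under either block 0 of 19932 windows passed by this permutation test, while 11623 and 11273 had an unadjusted p under 0.05, Tfcp2l1 under both with 0.0417. Libraries of 1 number did not deviate together (correlations from −0.00482 to 0.0779), so no shared effect of the number was seen in the peak lists. Whether samples of 1 number were prepared together cannot be told from this. KLF4 length passed the threshold in no setting. With 1 library left out, adjusted p ran from 0.205 to 0.753 for Esrrb, 0.423 to 0.782 for Tfcp2l1 and 0.162 to 0.753 for Nr5a2.

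Region counts moved most. H3K27ac regions called at any stage, 21 at Esrrb, 30 at Tfcp2l1 and 6 at Nr5a2, became 7, 4 and 2 with lists cut to equal length by score and 38, 51 and 14 with a peak in any library. With a q-value of at most 0.01, Esrrb had 12. With 1 library left out they ran from 21 to 37, 30 to 44 and 6 to 12. Esrrb had 37 and 36 without the first and second ESC library, and Nr5a2 12 without the second. Leaving out a library changes both how peaks merge and how many libraries a call needs, and the part of each was not tested. Called KLF4 regions at Nr5a2, 5 in all, became 3 with equal lists, 3 with the q-value limit and 10 with any library, and with 1 library left out ran from 9 to 13 at Esrrb, 8 to 11 at Tfcp2l1 and 5 to 7 at Nr5a2.

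Sites with KLF4 first, 2 at Esrrb, 3 at Tfcp2l1 and 1 at Nr5a2, became 0 at Esrrb and 0 at Nr5a2 when 1 H3K27ac peak had to cover 50% of the shorter interval, since 2 peaks reached those sites from their sides. Tfcp2l1 had 5 with equal lists, and Nr5a2 had 3 with any library. In batch EA-3702 alone Esrrb had 0. These counts were not run with the q-value limit. With 1 library left out the counts ran from 2 to 3, 2 to 4 and 1 to 2, and Nr5a2 had 2 without the EA-3702 KLF4 library of day 6. The first stage of each mark per window was as stated in 153 of 156 values. The exceptions were H3K27ac at Tfcp2l1, first at day 6 with equal lists, and at Nr5a2, first in MEF with any library or without the second MEF library. Many of the 156 values could not change, so their number is no measure of stability. The overlap rules do not enter the window call, and leaving out a library of one mark cannot move the other mark.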
